A study of Mus musculus with 9 samples.

Results

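The 9 genes described here serve retinoid metabolism and signalling: the retinoic acid receptor genes Rarg and Rara, their partner Rxra, the retinol transporter gene Stra6, the retinoic acid binding protein gene Crabp2, the retinaldehyde reductase gene Dhrs3, the oxidase genes Aldh1a3 and Aox4, and the retinoic acid hydroxylase gene Cyp26b1. They were chosen by symbol from 24532 genes counted in mouse skin cells, and all 9 were among the 14507 genes that passed the low-count filter. The cells were keratinocytes by label, from untreated C57BL/6 mice at postnatal day 1, 7 or 14, with 3 libraries a day. They were sorted from fresh skin as negative for CD45.2, a leukocyte surface protein, and for propidium iodide, a stain of dead cells, and the labels name no keratinocyte marker in the sort. Neither single animals nor pools are named, so each p-value reflects spread among libraries that may be technical replicates. The libraries taken as day 1 carry D0 in their headers, a day that no label has, and were assigned by elimination. Libraries are numbered here as in those headers.

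Retinol is taken up from the blood and either stored as esters or oxidised, first to retinaldehyde and then to retinoic acid. Retinoic acid acts in the nucleus on heterodimers of a retinoic acid receptor (RAR) with a retinoid X receptor (RXR), and is removed by hydroxylases of the CYP26 family. In the epidermis it affects keratinocyte growth, differentiation and the barrier, and both lack and excess of vitamin A disturb the skin.

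Library totals ranged from 50670191 to 62970768 counts. The 6 basal keratinocyte genes, Krt5 and Krt14 among them, summed to 41020.0 to 42470.0 counts per 1000000 (CPM) at day 1, 41740.0 to 43260.0 at day 7 and 30200.0 to 35130.0 at day 14. Most of these sums was Krt5 and Krt14, with means of 21980 and 12760 CPM at day 1. Those 2 genes fell from day 1 to day 14, while Trp63, Itga6 and Col17a1 rose. Of 5 granular layer genes, 4 (Lor, Ivl, Flg2 and Tgm1) were higher at day 14 than at day 1 and at day 7. Tgm3, the most abundant of them, was at 131.5, 670.1 and 115.3 CPM in order of age. It fell from day 7 to day 14 (edgeR adjusted p = 8.31e-07). The 5 genes summed to 125.5 to 177.3 CPM at day 1, 681.0 to 707.8 at day 7 and 149.3 to 177.6 at day 14. The 8 melanocyte genes summed to 425 to 447 CPM at day 1, 117 to 141 at day 7 and 19.4 to 22.4 at day 14. The 10 fibroblast genes summed to 125 to 229.8 CPM at day 1, 17.6 to 64.8 at day 7 and 17.3 to 38.8 at day 14. Dcn alone was at 79.6 to 133.4 CPM at day 1. Of 8 tested fibroblast genes, 2 (Col1a2 and Dcn) fell from day 1 to day 7 and 0 rose. None of these melanocyte or fibroblast genes was at 0 in all libraries of a day. The 9 leukocyte genes summed to 5.52 to 6.96 CPM at day 1, 4.12 to 4.44 at day 7 and 14.3 to 14.9 at day 14, with 5 of 6 tested higher at day 14 than at day 7. Xist, transcribed from an inactive X chromosome, had 0 counts in the 3 day 7 libraries, and the Y-linked Ddx3y had 0 in the 3 day 14 libraries. Each day 1 library held both, with Xist at 1553, 861 and 1642 CPM and Ddx3y at 40.8, 55.6 and 29.0 CPM in libraries 4, 5 and 6. The balance of these genes thus differed among the day 1 libraries. Day 1 thus read as a mix of both sexes, day 7 as male and day 14 as female. Sex and age cannot be told apart here. Nor can fewer cells of a type and less RNA per cell be told apart in bulk samples.

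RefSeq promoter sequence (GRCm38.p6) was at hand for 7 of the 9 genes, with 17 start sites. The 250 bases before each start were searched on both strands for the hexamers that RAR and RXR bind, spelled AGGTCA or GGGTCA or AGTTCA or GGTTCA, and for direct repeats of a hexamer with 1, 2 or 5 bases between. A hexamer stood in 4 of the 17 windows, those of Rarg, Rara, Rxra and Aox4, and in 38.6% of 32851 mouse windows of that length. No direct repeat stood in any of the 17. Repeats with 1 or 2 bases between stood in 0.164% and 0.174% of all windows, so 17 windows are too few to expect any. The windows of Rarg and Aox4 are printed because these genes had the highest level per transcript length and the greatest fall, with the match, which lies on the opposite strand in both, in capitals. They are chr15:102257523-102257772 (minus strand) and chr1:58210147-58210396 (plus strand).
Rarg: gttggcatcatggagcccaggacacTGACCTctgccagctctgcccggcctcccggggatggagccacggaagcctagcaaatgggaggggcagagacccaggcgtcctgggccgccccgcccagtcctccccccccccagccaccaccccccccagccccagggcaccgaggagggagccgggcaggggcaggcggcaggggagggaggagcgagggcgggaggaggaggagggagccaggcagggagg
Aox4: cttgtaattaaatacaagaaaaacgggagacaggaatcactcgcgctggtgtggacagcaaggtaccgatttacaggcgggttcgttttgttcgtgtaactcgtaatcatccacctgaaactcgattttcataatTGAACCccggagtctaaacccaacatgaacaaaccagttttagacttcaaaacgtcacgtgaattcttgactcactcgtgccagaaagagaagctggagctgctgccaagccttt
A direct repeat with 5 bases between stood in 0.0883% of all windows, among them those of Rarb and Cyp26a1, both classical targets of retinoic acid. These repeats are printed because the counts of both genes are given with the results, with the hexamers in capitals, read 5′ to 3′ on the gene's strand (the Cyp26a1 repeat is on the opposite one), at chr14:16575513-16575529 (minus) and chr19:37697776-37697792 (plus).
Rarb: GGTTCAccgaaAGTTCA
Cyp26a1: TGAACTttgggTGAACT
Among the further retinoid genes described below, Bco1 also had a direct repeat, with 1 base between, which is not printed. A match is a description of letters and not a measured site.

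Of the 9 genes, Rarg, Crabp2 and Dhrs3 rose from day 1 to day 7 and again to day 14, and Aox4 fell at both steps. From day 1 to day 7, 6 rose (Rarg, Rxra, Stra6, Crabp2, Aldh1a3 and Dhrs3) and 2 fell (Rara and Aox4), where 25.5% of all tested genes rose and 24.0% fell (49.4% in either direction). From day 7 to day 14, 5 rose (Rarg, Rara, Crabp2, Dhrs3 and Cyp26b1) and 3 fell (Rxra, Aldh1a3 and Aox4), against 32.5% and 35.1% of all tested genes (67.6% in either direction). From day 1 to day 14, 6 rose (Rarg, Rara, Stra6, Crabp2, Dhrs3 and Cyp26b1) and 2 fell (Aldh1a3 and Aox4), against 35.5% and 38.4% (73.9% in either direction), though Rara was lower at day 14 than at day 1 when only library totals were used for scaling. The median log2 fold change of the 9 genes was 0.45, 0.44 and 0.67 in these comparisons, and that of all tested genes was -0.0005, -0.0350 and -0.0459. A change means an adjusted p under 0.05 in edgeR's quasi-likelihood test over all tested genes. With library totals alone as scaling, the medians of all genes moved to -0.0995, -0.2096 and -0.3191, and the share of called genes that were higher moved from 51.5%, 48.1% and 48.1% to 35.7%, 34.9% and 31.9%. Then 5, 4 and 5 of the 9 genes rose and 2, 3 and 4 fell. From day 7 to day 14, as for Rarg, Crabp2, Dhrs3 and Cyp26b1, 4 of 5 granular layer genes rose, while Tgm3 fell. Of 6 tested leukocyte genes 5 rose over those days. From day 1 to day 7, 2 granular layer genes rose and 0 fell, and 1 leukocyte gene rose and 2 fell. The part of these cells in the retinoid gene values was not tested.

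**Figure D1:**
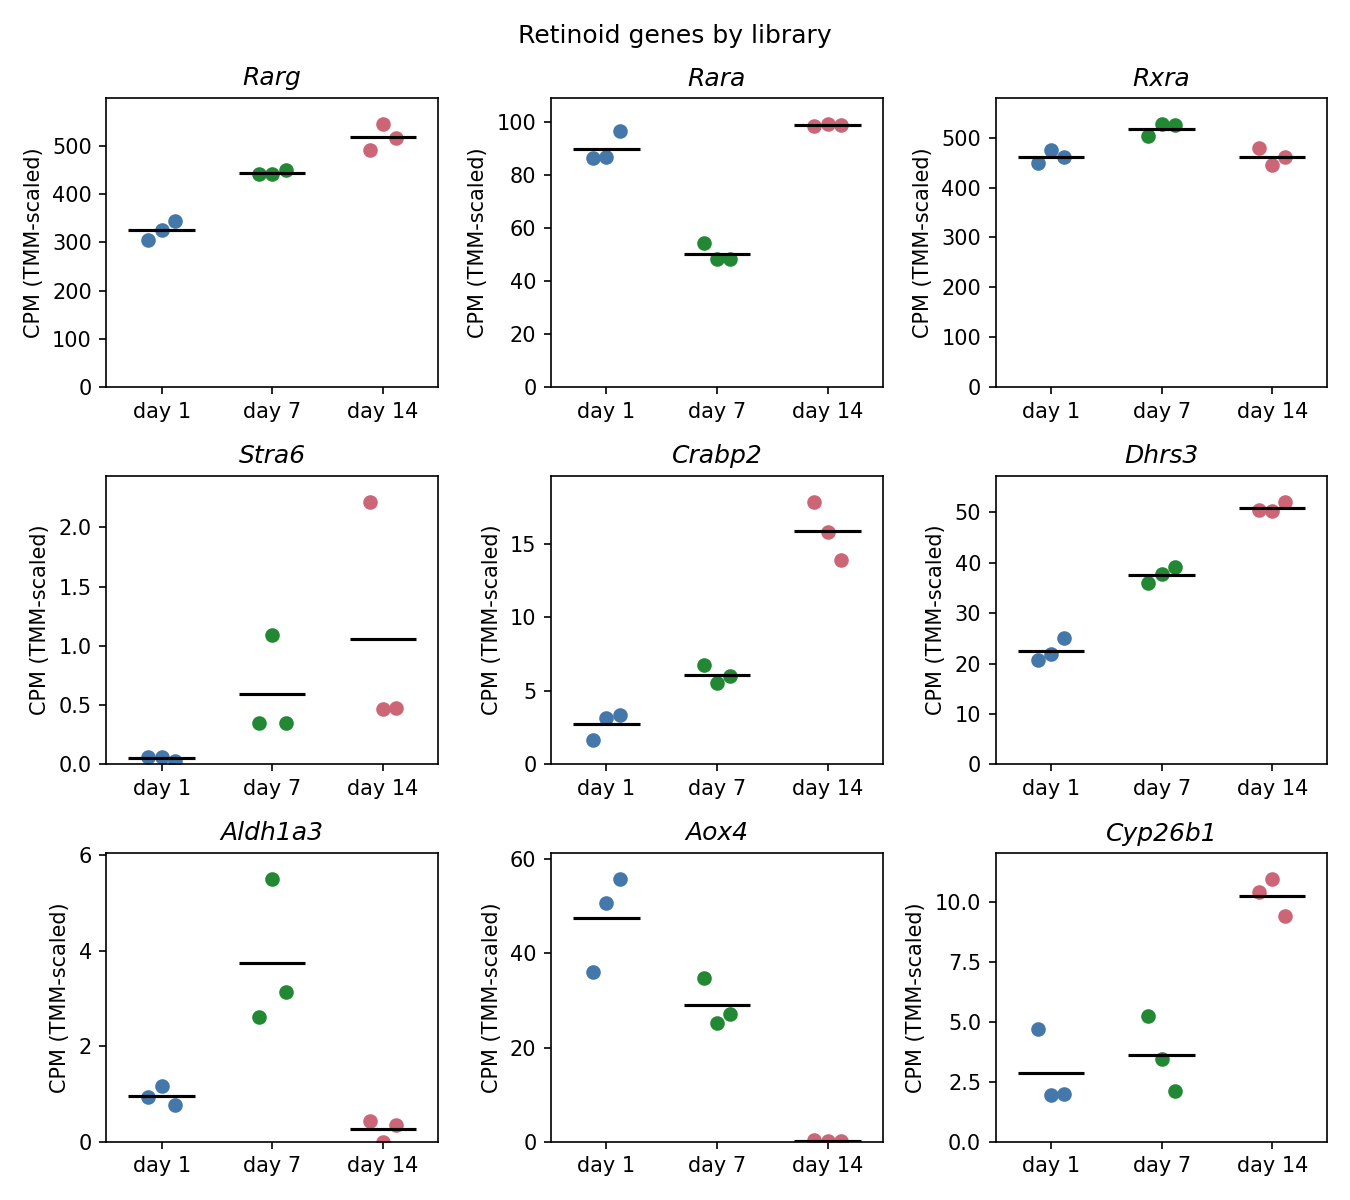
CPM on the TMM-scaled libraries (vertical axes, each from 0) of the 9 retinoid genes at days 1, 7 and 14 (horizontal axes), with a point for each of 3 libraries a day and a line at their mean. Rarg, Crabp2 and Dhrs3 step up at both intervals, Rara is lowest and Aldh1a3 highest at day 7, and Aox4 is at most 0.320 CPM at day 14.

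Per transcript length, the receptor genes Rarg and Rxra were the most abundant of the 9 on each day. As CPM per kilobase of the longest coding transcript in GENCODE, Rarg stood at 110.2 ± 6.90 at day 1, 151 ± 1.54 at day 7 and 176 ± 8.90 at day 14 (mean ± SD, n = 3 libraries), and Rxra at 94.2 ± 2.57, 106 ± 2.83 and 94.0 ± 3.48. Rara came next at days 1 and 14 (26.6 and 29.2 CPM per kilobase), and at day 7 its libraries overlapped those of Dhrs3 (14.9 against 16.1). Dhrs3 in turn overlapped Aox4 at day 1, at 9.64 against 9.54 CPM per kilobase. Crabp2 and Aox4 overlapped at day 7 (6.55 against 5.84). Cyp26b1, Aldh1a3 and Stra6 were scarce throughout, with Cyp26b1 highest of them at 2.29 ± 0.174 CPM per kilobase at day 14. Aldh1a3 overlapped Cyp26b1 at day 7 and Aox4 at day 14, and all other neighbours in these orders were apart.

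Rarg, the main retinoic acid receptor of epidermis (gene 19411, chromosome 15, 102234938 to 102257522), was at 304, 327 and 345 CPM in the day 1 libraries, 442, 442 and 449.9 CPM at day 7 and 492, 545 and 518 CPM at day 14. The days did not overlap and each later day was higher. It rose 1.37-fold to day 7 (log2 fold change 0.45 ± 0.05 SE, adjusted p = 2.18e-05) and 1.59-fold from day 1 to day 14 (0.67 ± 0.05, adjusted p = 1.79e-07). The step from day 7 to day 14 was 1.17-fold (0.22 ± 0.05, adjusted p = 0.00272), and it was lost with library totals alone (0.05, adjusted p = 0.438), while the other alternatives kept it.

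Rara, the more widely expressed receptor (gene 19401, chromosome 11, 98927800 to 98974942), fell and came back. It was at 86.3, 86.7 and 96.6 CPM at day 1, 54.2, 48.4 and 48.2 CPM at day 7 and 98.4, 99.1 and 98.7 CPM at day 14. Each day 7 library was below each library of the other days. The fall was 1.79-fold (log2 fold change -0.84 ± 0.06, adjusted p = 2.55e-07) and the later rise 1.96-fold (0.97 ± 0.06, adjusted p = 3.08e-08). Between days 1 and 14 the difference was small (log2 fold change 0.14 ± 0.06, adjusted p = 0.0490). It passed under 7 of 16 alternatives, with library totals alone in the opposite direction (-0.14, adjusted p = 0.0323). It was lost without day 1 library 4 (adjusted p = 0.192) or 5 (0.192), without day 7 library 2 (0.0676) or 3 (0.0710), without any one day 14 library (0.0991 to 0.121) and without the low-count filter (0.0849). A predicted RefSeq gene, Gm46294, overlaps Rara and was not analysed here.

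Rarb, the family member with the repeat shown above, went down at a far lower level. It had 77, 84 and 76 counts at day 1, 66, 34 and 17 at day 7 and 3, 4 and 7 at day 14. The day 14 libraries were below all others, and Rarb fell from day 7 (log2 fold change -2.79 ± 0.52, adjusted p = 0.000455) and from day 1 (-3.73 ± 0.51, adjusted p = 2.77e-05). Of the summed CPM per kilobase of the 3 RAR genes, Rarg made up 79.9 to 80.9% at day 1, 90.2 to 91.4% at day 7 and 85.1 to 86.3% at day 14, so that its share was highest at day 7, when Rara was lowest.

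Rxra, the RXR that pairs with RAR and also with the vitamin D receptor and PPARs (gene 20181, chromosome 2, 27676445 to 27763319), moved little. Its libraries were at 449.5, 475 and 462 CPM at day 1, 502, 527 and 526 CPM at day 7 and 478, 444 and 460.4 CPM at day 14. The day 7 libraries were above the others, 1.12-fold against day 1 (log2 fold change 0.17 ± 0.04, adjusted p = 0.00759), and the later step was -0.17 ± 0.04 (adjusted p = 0.00446). With library totals alone the rise to day 7 was lost (0.07, adjusted p = 0.234). Between days 1 and 14 no change was called (adjusted p = 0.950), whereas library totals alone gave -0.28 (adjusted p = 9.23e-05). Rxra made up 77.1 to 78.8% of the summed RXR CPM per kilobase at day 1, 80.6 to 81.7% at day 7 and 75.4 to 76.3% at day 14. Rxrb supplied most of the rest (68.9 ± 4.10, 64.0 ± 0.696 and 78.8 ± 3.01 CPM), and Rxrg had at most 10 counts in a library.

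Crabp2, which delivers retinoic acid to RAR (gene 12904, chromosome 3, 87948693 to 87953372), rose at each step. It was at 1.67, 3.15 and 3.34 CPM at day 1, 6.77, 5.51 and 6.01 CPM at day 7 and 17.9, 15.8 and 13.9 CPM at day 14, with no overlap between days. The rise was 2.25-fold to day 7 (log2 fold change 1.17 ± 0.22, adjusted p = 0.00179), 2.60-fold from there to day 14 (1.38 ± 0.21, adjusted p = 0.000252) and 5.84-fold from day 1 to day 14 (adjusted p = 3.00e-06). Fabp5, a fatty acid carrier that also binds retinoic acid, was far more abundant (139 ± 21.7 CPM per kilobase at day 1, against 2.92 ± 0.981 for Crabp2) and fell from day 1 to day 14 (log2 fold change -0.60 ± 0.15, adjusted p = 0.00726).

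Stra6, the receptor through which retinol enters from its plasma carrier (gene 20897, chromosome 9, 58063793 to 58154004), was scarce and rose from near nothing. It had 4, 4 and 2 counts at day 1, 22, 67 and 18 at day 7 and 111, 25 and 24 at day 14. Each day 1 library was below each later one, and 1 library stood above the others at both later days. The rise was 3.47 ± 0.85 on the log2 scale to day 7 (adjusted p = 0.00559) and 4.28 ± 0.84 from day 1 to day 14 (adjusted p = 0.000669). Without day 7 library 2 the former was 2.69 (adjusted p = 0.0237), and without day 14 library 4 the latter was 3.13 (adjusted p = 0.00226). The step from day 7 to day 14 did not pass (0.81 ± 0.65, adjusted p = 0.288), was 1.58 without day 7 library 2 (adjusted p = 0.0715) and turned to -0.34 without day 14 library 4 (adjusted p = 0.639). The summed fibroblast genes were at 64.8 CPM in day 7 library 2, against 17.6 and 19.3 CPM in the others of that day, and at 38.8 CPM in day 14 library 4, against 23.2 and 17.3 CPM. At day 1, where Stra6 was lowest, they were at 125 to 229.8 CPM, of which Dcn alone was at 79.6 to 133.4 CPM. Of the hair follicle genes, Krt71, Krt75 and Shh were also highest of their day in day 7 library 2 and in day 14 library 4. Krt71 was at 11.09 CPM in the former (0.805 and 2.75 in the others of that day) and 7.05 CPM in the latter (2.21 and 1.49). At day 1 it was at 0.260 to 0.772 CPM. Shh was instead highest at day 1, and Sox9, Lgr5, Krt15, Lhx2 and Tchh did not peak in both libraries. The part of the fibroblast or hair follicle genes in the Stra6 values was not tested. Ccdc33, which overlaps Stra6, had 0 counts in each library.

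Dhrs3, which reduces retinaldehyde back to retinol and so limits retinoic acid synthesis (gene 20148, chromosome 4, 144892534 to 144928209), rose at both steps. Its libraries were at 20.7, 21.9 and 25.01 CPM at day 1, 36.0, 37.7 and 39.2 CPM at day 7 and 50.4, 50.3 and 52.1 CPM at day 14. No libraries of different days overlapped. The rise was 1.67-fold to day 7 (log2 fold change 0.74 ± 0.07, adjusted p = 2.77e-06), 1.35-fold from there (0.44 ± 0.07, adjusted p = 0.000101) and 2.26-fold from day 1 to day 14 (1.18 ± 0.07, adjusted p = 1.04e-08). RefSeq's span of Vps13d covers Dhrs3, and Vps13d rose by 0.60 on the log2 scale from day 1 to day 14. The strand setting of the counting is not known, so reads shared by these genes cannot be told apart.

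Cyp26b1, which hydroxylates retinoic acid for removal (gene 232174, chromosome 6, 84571414 to 84593908), was highest at day 14. It was at 4.72, 1.96 and 1.99 CPM at day 1, 5.27, 3.47 and 2.15 CPM at day 7 and 10.42, 10.97 and 9.43 CPM at day 14. Days 1 and 7 overlapped, and each day 14 library was above both. The step from day 7 to day 14 was 2.81-fold (log2 fold change 1.49 ± 0.41, adjusted p = 0.0137) and that from day 1 to day 14 was 3.54-fold (1.82 ± 0.42, adjusted p = 0.00487). From day 1 to day 7 the difference was 0.33 ± 0.42 (adjusted p = 0.556). Day 1 library 4, the highest of its day for Cyp26b1, also had the highest fibroblast sum (229.8 against 125 and 140.4 CPM), whose part was not tested. Dcn alone was at 133.4 CPM there, against 79.6 and 107.7 CPM. At day 7 library 1 was highest for Cyp26b1 and had the lowest fibroblast sum (17.6 CPM), and at day 14, where Cyp26b1 was highest, the sums were 17.3 to 38.8 CPM. Without day 1 library 4 the value for day 7 was 0.89 (adjusted p = 0.0536) and that for day 14 was 2.37 (adjusted p = 0.000213). Of the other hydroxylase genes of this family, Cyp26a1, with the repeat shown above, had 2 counts in day 7 library 2 and 0 in the other 8 libraries, and Cyp26c1 had 0 in all 9. Cyp2s1, a cytochrome P450 gene of skin, rose at both steps (7.56 ± 0.389, 10.4 ± 0.174 and 15.4 ± 0.764 CPM in order of age, adjusted p = 0.000303 and 3.42e-05).

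Aldh1a3, a dehydrogenase that makes retinoic acid from retinaldehyde (gene 56847, chromosome 7, 66390892 to 66427477), peaked at day 7 at a low level. It was at 0.947, 1.17 and 0.765 CPM at day 1, 2.60, 5.50 and 3.13 CPM at day 7 and 0.439, 0 and 0.358 CPM at day 14. No libraries of different days overlapped. The fall from day 7 to day 14 was -3.82 ± 0.71 on the log2 scale (adjusted p = 0.00136), -3.23 without day 14 library 5, which had 0 counts, -4.40 without day 14 library 4 and -4.99 with limma-voom. The rise to day 7 (1.96 ± 0.61, adjusted p = 0.0274) was lost without any one day 1 library (adjusted p from 0.0641 to 0.0984), without day 7 library 2 (0.0875) or 3 (0.0523) and with DESeq2 (0.0673), and was kept under 9 of 15 alternatives. Day 7 library 2, the highest of its day here, was also the one with the highest fibroblast sum. At day 1, where Aldh1a3 was lower, those sums were 125 to 229.8 CPM, of which Dcn alone was at 79.6 to 133.4 CPM. Library 5, the highest of that day for Aldh1a3, had the lowest sum. The hair follicle genes Krt71, Krt75, Lgr5, Lhx2 and Shh were also highest of day 7 in library 2, while Sox9, Krt15 and Tchh were not. At day 14, where Aldh1a3 was lowest, Krt71 and Krt75 were above their day 1 levels. The part of fibroblasts or hair follicle cells in the Aldh1a3 values was not tested.

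The day 14 level of Aldh1a3 was below that of day 1 (log2 fold change -1.86 ± 0.73, adjusted p = 0.0442), a call kept under 5 of 16 alternatives. It was lost without any one day 1 library (adjusted p from 0.0672 to 0.112), without day 7 library 1 (0.0504) or 3 (0.0621), without day 14 library 6 (0.0736) and with DESeq2 (0.0695), limma-voom (0.0608), no low-count filter (0.0593) or only these days in the fit (0.0540). It was -3.09 with limma-voom, -1.27 without day 14 library 5 and -2.44 without day 14 library 4. Aldh1a1, a dehydrogenase of the same reaction, kept rising after day 7, with 81, 85 and 90 counts at day 1, 176, 145 and 120 at day 7 and 262, 357 and 336 at day 14 (log2 fold change 2.21 ± 0.17 over the whole interval, adjusted p = 1.11e-07). At day 7 Aldh1a1 and Aldh1a3 stood at 1.05 ± 0.107 and 1.09 ± 0.447 CPM per kilobase, and at day 14 at 2.64 ± 0.361 and 0.0772 ± 0.0679. Aldh1a2 had at most 7 counts in a library.

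Aox4, an aldehyde oxidase that can turn retinaldehyde into retinoic acid (gene 71872, chromosome 1, 58210397 to 58268600), had the greatest fall of the 9 genes. It was at 36.0, 50.7 and 55.7 CPM at day 1, 34.7, 25.2 and 27.2 CPM at day 7 and 0.320, 0.132 and 0.139 CPM at day 14, where the libraries had 16, 7 and 7 counts. The day 14 libraries lay far below all others. Aox4 was 147-fold lower at day 14 than at day 7 (log2 fold change -7.20 ± 0.34, adjusted p = 4.86e-07) and 239.7-fold lower than at day 1 (-7.91 ± 0.34, adjusted p = 1.38e-07). The earlier step to day 7 was 1.63-fold down (-0.71 ± 0.19, adjusted p = 0.0177), and was lost without day 1 library 5 (adjusted p = 0.0551) or 6 (0.0517) or without day 7 library 2 (0.0588) or 3 (0.0620). The melanocyte genes fell over the same days by the sums given above, with 8 of 8 lower at day 7 than at day 1 and 7 of 8 lower at day 14 than at day 7. Genes of other cell types fell too from day 1 to day 14. Of tested sebaceous gland genes 2 of 4 fell and 0 rose, and of hair follicle genes 4 of 8 fell and 2 rose. Of Schwann cell genes 3 of 5 fell and 1 rose, and of fibroblast genes 3 of 8 fell and 0 rose. The part of any of these cells in the Aox4 values was not tested.

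Aox4 lies in a row of aldehyde oxidase genes on chromosome 1, in the order Aox1 (58029809 to 58106410), Aox3 (58113135 to 58202221), Aox4 and Aox2 (58278326 to 58379264). Both neighbours of Aox4 fell too. Aox3 had 74, 55 and 72 counts at day 1, 9, 20 and 5 at day 7 and 0, 5 and 0 at day 14 (adjusted p = 0.00626 to day 7 and 0.0286 from there). Its later step was lost without day 7 library 2 (adjusted p = 0.125) or day 14 library 4 (0.0819) or 6 (0.0834). Aox2 had 138, 153 and 164 counts at day 1, 59, 49 and 26 at day 7 and 3, 0 and 0 at day 14 (adjusted p = 0.00322 and 2.19e-05). Aox1, at the far end, instead rose, with 141, 84 and 147 counts at day 1, 192, 207 and 162 at day 7 and 164, 181 and 207 at day 14 (log2 fold change 0.89 ± 0.20 from day 1 to day 14, adjusted p = 0.00176). None of the 8363 distinct stretches of 50 bases in GENCODE transcripts of Aox4 occurs in those of the other 3 genes. Per length Aox4 was the most abundant of the 4 at day 1, at 9.54 CPM per kilobase against 0.439 for Aox1, 0.414 for Aox2 and 0.228 for Aox3, and at day 14 it was below Aox1 (0.0396 against 0.814).

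**Figure D2:**
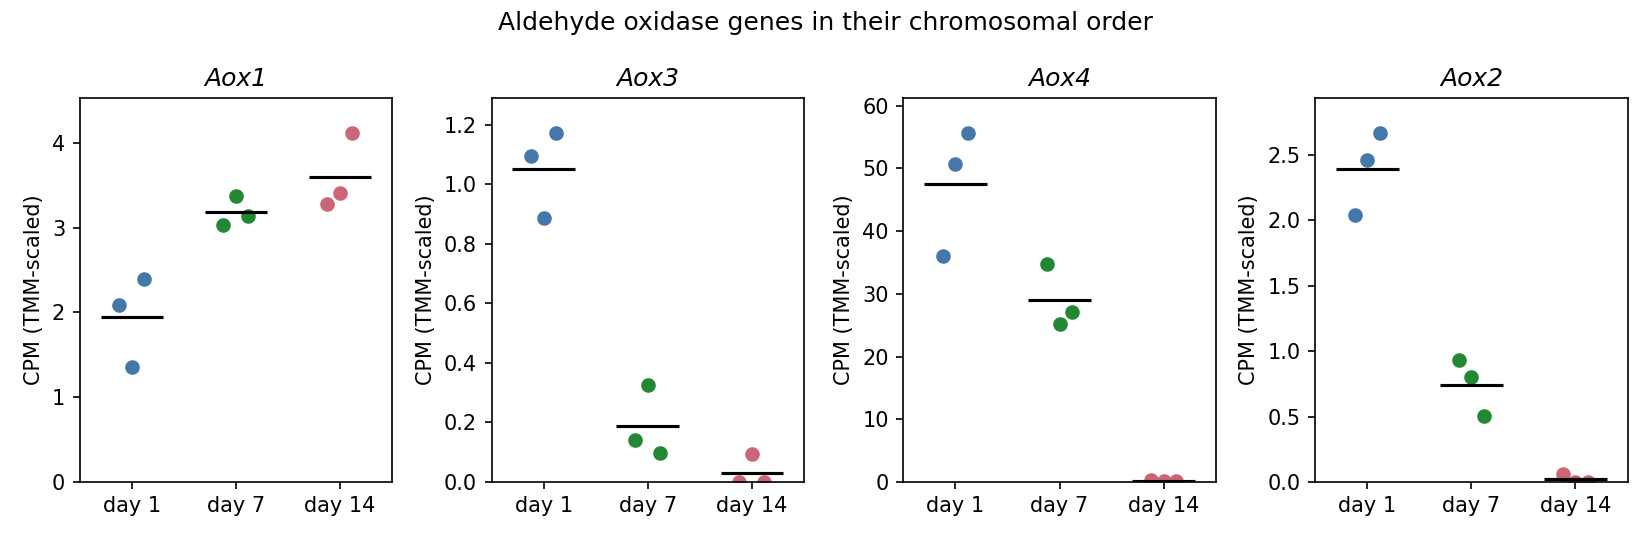
CPM on the TMM-scaled libraries (vertical axes, each from 0 and on its own scale) of the aldehyde oxidase genes Aox1, Aox3, Aox4 and Aox2, in chromosomal order, at days 1, 7 and 14, with a point for each of 3 libraries a day and a line at their mean. Aox3, Aox4 and Aox2 step down to at most 0.320 CPM at day 14, while the mean of Aox1 is higher at days 7 and 14 than at day 1.

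**Figure D3:**
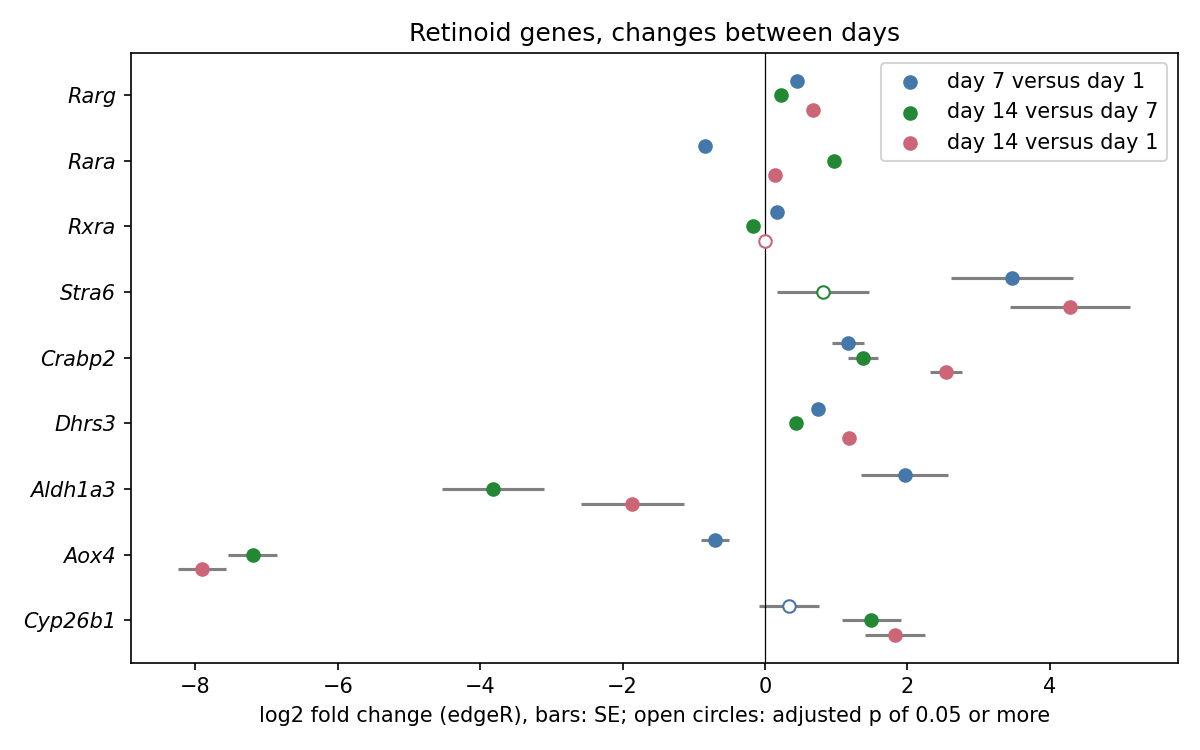
Log2 fold changes from edgeR (horizontal axis) of the 9 retinoid genes (rows) in the 3 comparisons between days (colours), with bars of 1 SE and open circles where the adjusted p was 0.05 or more. The values run from -7.91 for Aox4 to 4.28 for Stra6, and those of Rarg, Rara and Rxra lie between -0.84 and 0.97.

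For each gene, the tested genes with the most similar course over the 9 libraries were found by the root mean square (RMS) difference of centred log2 CPM, among genes of at least 10 CPM in their highest day. Nearest to Aox4 were Fras1, an epidermal basement membrane gene (RMS 0.65), Tyr, the tyrosinase of melanocytes (0.65), and Brinp1 (0.77), where the median over 9599 genes was 3.58. Nearest to Crabp2 were Ly6g6e (0.09), Ephx3, an epoxide hydrolase gene (0.13), and Dgat2, an acyltransferase gene (0.17), against a median of 1.0959. The genes nearest to Dhrs3 were Mettl7a1 (0.06), Parp10 (0.06) and Cd9, a tetraspanin gene (0.07), against 0.53. For Rarg they included Tex2 (0.03) and Ttc7 (0.04), against 0.36. For Rara they were Cbx2, a Polycomb gene (0.07), Fbrsl1 (0.105) and Slc7a5, an amino acid transporter gene (0.11), against 0.53. For Rxra they were Spcs2 (0.03), Mrfap1 (0.03) and Faf2 (0.04), against 0.24, and for Cyp26b1 they were Rgs2 (0.31), Hivep3 (0.31) and Nr4a1 (0.37), against 0.98. Nearest to the scarce Stra6 was Tuba8 (0.71, before Ivl and Aff3), against a median of 1.73. Nearest to the scarce Aldh1a3 was Cyp2f2 (1.40, before Slc38a4 and Kcnk2), against 2.30, the least close nearest gene of the 9.

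The wider pathway was described with 80 further retinoid genes in 8 groups, of which 69 were tested and 11 were too scarce. From day 1 to day 7, 26 rose and 9 fell (37.7% and 13% of those tested, against 25.5% and 24.0% of all tested genes). From day 7 to day 14, 33 rose and 23 fell (47.8% and 33.3%, against 32.5% and 35.1%), and from day 1 to day 14, 34 rose and 22 fell (49.3% and 31.9%, against 35.5% and 38.4%). Their median log2 fold changes were 0.20, 0.19 and 0.27. With library totals alone 15 rather than 9 fell between days 1 and 7.

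Of 19 tested genes that interconvert retinol and retinaldehyde, 9 rose and 1 fell to day 7 (47.4% and 5.26%, against 25.5% and 24.0% of all tested genes), and 6 rose and 10 fell from there to day 14 (31.6% and 52.6%, against 32.5% and 35.1%). Adh7, an alcohol dehydrogenase active on retinol, rose from 3.58 ± 0.499 CPM at day 1 to 52.5 ± 5.12 at day 7 and then 80.2 ± 3.77 CPM at day 14 (log2 fold change 4.49 ± 0.10 over the whole interval, adjusted p = 1.85e-11). Rdh12, a retinaldehyde reductase like Dhrs3, rose from 10.3 ± 1.67 CPM at day 1 to 43.0 ± 2.56 at day 7 and then 107 ± 2.65 CPM at day 14 (3.38 ± 0.10, adjusted p = 2.94e-10), and its relative Rdh11 was at 20.7 ± 0.643, 31.3 ± 0.605 and 49.5 ± 4.34 CPM (1.26 ± 0.07, adjusted p = 3.54e-09). Sdr16c5, an epidermal retinol dehydrogenase, turned at day 7, at 49.0 ± 5.21, 89.7 ± 1.80 and 35.0 ± 2.90 CPM (adjusted p = 2.30e-06 for the rise and 2.89e-08 for the fall). Adh1 did likewise at 8.64 ± 1.15, 11.8 ± 0.469 and 4.92 ± 0.556 CPM (adjusted p = 0.00615 and 1.53e-06). Adh5 fell from day 7 to day 14 (log2 fold change -0.83 ± 0.04, adjusted p = 9.07e-09).

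Of 11 tested genes for uptake, binding and storage, 4 rose and 2 fell to day 7 (36.4% and 18.2%, against 25.5% and 24.0% of all tested genes), and 4 rose and 4 fell from there to day 14 (36.4% and 36.4%, against 32.5% and 35.1%). Dgat2, an enzyme of triglyceride synthesis, rose, from 7.57 ± 1.77 CPM at day 1 to 20.5 ± 0.239 at day 7 and then 48.1 ± 6.40 CPM at day 14 (adjusted p = 4.92e-07 for day 14 versus day 1). Its namesake Dgat1, which also esterifies retinol, fell from day 1 to day 7 (log2 fold change -0.23 ± 0.06, adjusted p = 0.00521). Scarb1, a lipoprotein receptor gene, fell at both steps, at 21.9 ± 1.53, 6.33 ± 0.747 and 3.42 ± 0.808 CPM (adjusted p = 9.63e-07 and 0.000237). Rbp2, a cellular retinol-binding protein gene, was at 1.83 ± 0.460, 3.13 ± 0.486 and 5.06 ± 0.966 CPM and rose at both steps. Its later one was lost without day 7 library 1 (adjusted p = 0.0512) or day 14 library 4 (0.0671).

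Of 14 tested genes listed as induced by retinoids, 4 rose and 2 fell to day 7 (28.6% and 14.3%, against 25.5% and 24.0% of all tested genes), and 8 rose and 3 fell from there to day 14 (57.1% and 21.4%, against 32.5% and 35.1%). Their median log2 fold changes were 0.34 and 0.65. Rarb and Cyp26a1, named above as classical targets of retinoic acid, were not in this list or its counts. Rarb fell from day 7 to day 14 (log2 fold change -2.79, edgeR adjusted p = 0.000455), and Cyp26a1 was too scarce to test. Hbegf, a growth factor gene, had 66.3, 51.1 and 76.3 CPM at day 1, 196, 117 and 104 at day 7 and 561, 493 and 557 at day 14 (adjusted p = 6.40e-05 for day 14 versus day 1). Rarres1 was at 1.04 ± 0.458, 2.18 ± 0.409 and 15.8 ± 1.64 CPM (adjusted p = 8.61e-06 for the later step), and its earlier rise was lost without day 7 library 1 (adjusted p = 0.0501). Meis1, a homeobox gene, was at 9.89 ± 1.06, 12.3 ± 0.976 and 20.8 ± 0.595 CPM, and its earlier rise was lost with library totals alone (adjusted p = 0.0639) or without day 7 library 3 (0.0568). Has3, a hyaluronan synthase gene, fell instead, at 110.3 ± 10.3, 12.1 ± 0.319 and 3.01 ± 1.08 CPM (adjusted p = 9.67e-08 for day 14 versus day 1). Aqp3, a water and glycerol channel gene, fell from day 7 to day 14, at 503 ± 33.5, 514 ± 46.8 and 227 ± 11.1 CPM (adjusted p = 2.95e-08).

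Of 10 nuclear receptor genes listed as RXR partners, 4 rose and 2 fell to day 7 (40% and 20%, against 25.5% and 24.0% of all tested genes), and 6 rose and 2 fell from there to day 14 (60% and 20%, against 32.5% and 35.1%). The vitamin D receptor gene Vdr was at 88.8 ± 4.78, 189 ± 24.3 and 319.7 ± 23.5 CPM in order of age, Ppara at 12.3 ± 1.61, 48.2 ± 1.59 and 70.4 ± 3.51 CPM and the thyroid hormone receptor gene Thrb at 9.98 ± 0.341, 19.2 ± 1.62 and 27.3 ± 0.968 CPM, each rising at both steps. Nr4a1 rose from day 7 to day 14, at 657 ± 126, 753 ± 146 and 2367 ± 281 CPM (adjusted p = 0.000256). Nr4a2 fell and then rose, at 14.4 ± 2.73, 6.20 ± 2.02 and 72.9 ± 13.0 CPM (adjusted p = 0.00798 and 2.03e-05). Thra was at 118 ± 4.85, 136 ± 1.99 and 122 ± 2.81 CPM, with no call between days 1 and 14 (adjusted p = 0.363), where library totals alone gave -0.23 on the log2 scale (adjusted p = 0.000345).

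**Figure D4:**
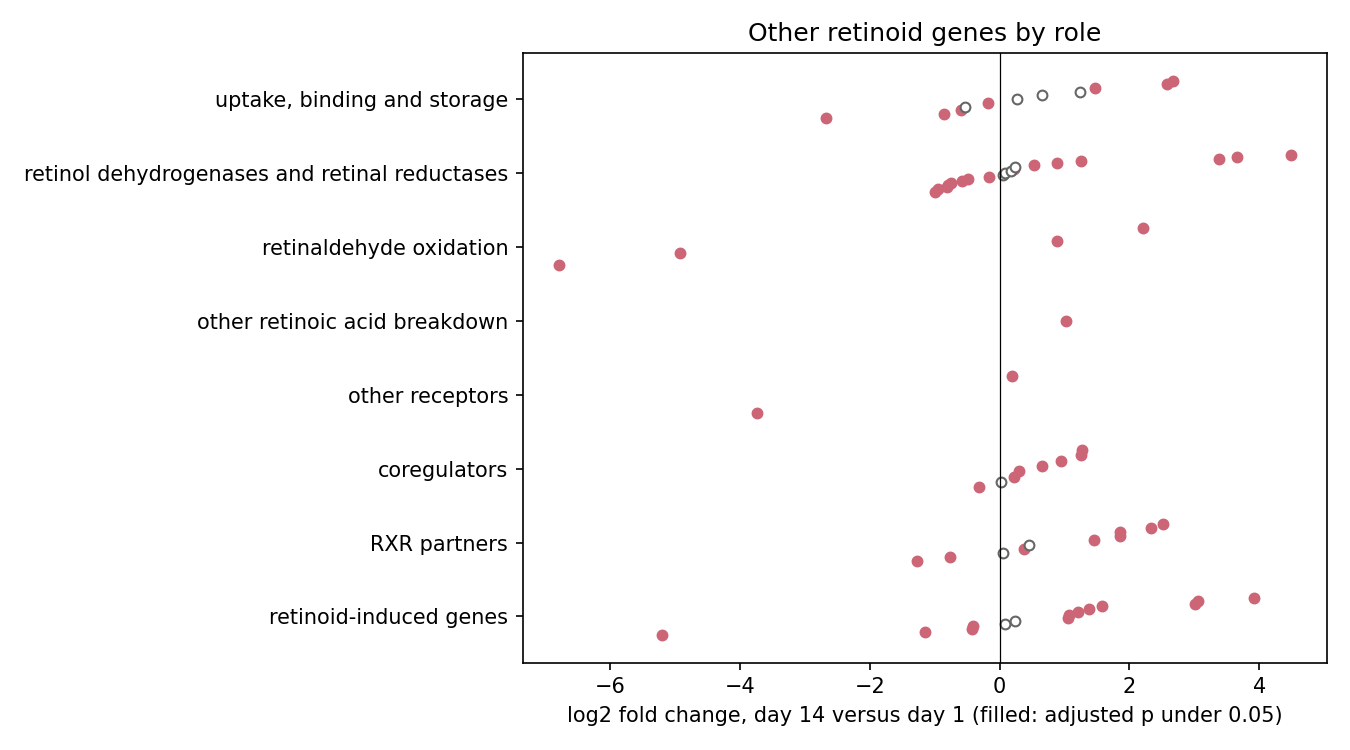
Log2 fold change of day 14 versus day 1 from edgeR (horizontal axis) for the 69 tested genes of the 8 other retinoid groups (rows), 1 point a gene, filled where the adjusted p was under 0.05. Of the filled points 34 lie above 0 and 22 below, with Aox2 lowest and Adh7 highest at 4.49.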

How the data were processed

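The submitters' processing notes list bcl2fastq 2.20.0, Trimmomatic, HISAT2 2.1.0, StringTie 1.3.4d and mm10. How reads were assigned to genes is not given in the sources used here. The values analysed were the deposited values per gene that the column headers call read counts. The table's other 18 columns of library values were not used, and planned levels per length from TPM were replaced by CPM per kilobase of the longest GENCODE coding transcript. Libraries were scaled by TMM factors. Day effects came from 1 robust quasi-likelihood model of all 9 libraries (edgeR 4.0.16, R 4.3.3, filterByExpr), with Benjamini-Hochberg adjustment over 14507 genes. CPM are means ± SD and log2 fold changes are ± SE. The steps were tested on simulated data. Members and lists were chosen with earlier results of these data known. From each other list the rule names called genes, the 3 of highest mean CPM and those called in all comparisons with a change over 2-fold, of which some are not reported here. Untested and overlapping genes outside the rule were named after their values were seen. Alternatives were RLE factors, library totals alone, no filter, DESeq2 1.42.0, limma-voom (limma 3.58.1), 2 days at a time and leaving out each library, with a block on header numbers added after seeing the data. Coordinates are RefSeq's (GRCm38.p6), matched by gene identifier.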

Additional observations from a re-analysis of the deposited data

How the results depend on the processing

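The planned replicate block on title numbers was not run, since the day 1 and day 14 headers are numbered 4 to 6 and the titles 1 to 3. Those 2 days share header numbers, and a replicate block on them, chosen after seeing the data, with only these days in the fit, called 5 members higher and 1 lower at day 14 than at day 1 (6 and 1 without the block). Under it Rara (adjusted p = 0.0688), Aldh1a3 (0.0980) and Fabp5 (0.0655) did not pass. Deviations of same-numbered libraries correlated at 0.007 to 0.092 across genes, and not every library correlated best with its own number. The fits on log2(TPM) were not run, since TPM columns were not used. From day 1 to day 7, the members that fell numbered 1 to 2 when leaving out a library (2 with all), and the other retinoid genes that fell numbered 15 with library totals alone (9 with TMM scaling and all libraries in edgeR, 8 to 11 under the other alternatives). From day 1 to day 14, the members that fell numbered 4 with library totals alone, and 1 without the low-count filter, with DESeq2, with limma-voom and with only the 2 days compared, where Aldh1a3 was the one lost, and 1 to 2 when leaving out a library (2 with all). With library totals alone the direction from day 1 to day 14 reversed for Rara (-0.14), Rxrb (-0.0798) and Thra (-0.23). The causes were not tested. Low counts limit Stra6 at day 1 and Aox4 and Aldh1a3 at day 14.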

Other observations

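Of 8 coregulator genes of RAR and RXR tested, 2 rose and 0 fell from day 1 to day 7 (25% and 0%, against 25.5% and 24.0% of all tested genes), and 6 rose and 1 fell from day 7 to day 14 (75% and 12.5%, against 32.5% and 35.1%). The coactivator gene Ncoa3 was at 77.2 ± 1.90, 117 ± 2.88 and 187 ± 6.10 CPM in order of age and rose at both steps (edgeR adjusted p = 4.06e-07 and 5.68e-08). Hdac3, a deacetylase of the corepressor complex, was at 104 ± 0.536, 98.8 ± 1.08 and 83.7 ± 0.126 CPM and fell from day 7 to day 14 (edgeR adjusted p = 7.51e-05).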
